A study of Mus musculus with 4 samples.

Results

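The 10 genes Piwil1, Piwil2, Ddx4, Tdrd1, Tdrd5, Tdrd6, Tdrd7, Tdrd9, Mael and Mov10l1 encode proteins of the piRNA pathway and of the chromatoid body in male germ cells. They were taken by gene name, as 10 of the 28595 genes of a count table of mouse testis RNA. RNA was counted in sections of testis from wild-type mice, whose titles carry the word young, and from H3t KO mice, which carry a deletion of the testis histone H3 variant H3t and whose titles name no age. No other allele or agent is named for either genotype. Sections were processed by photo-isolation chemistry (PIC), in which ultraviolet light frees blocked ends so that libraries come from the lit area, and light fell either on the entire section or only on Leydig cells, the testosterone-making cells that lie outside the tubules. Each of the 4 groups held 3 libraries, and nothing in the labels tells whether they stem from separate mice. P-values therefore reflect the spread among libraries, which may be technical.

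Piwi-interacting RNAs (piRNAs) are small RNAs that guide Piwi proteins to transposon and other transcripts in germ cells. A Piwi protein is loaded and its piRNA is trimmed on granules that gather around mitochondria in spermatogonia and spermatocytes, and in round spermatids these components condense into the chromatoid body, a perinuclear RNA-protein body. Tudor domain (Tdrd) proteins scaffold both structures by binding methylated arginines of Piwi proteins. In meiosis the transcription factor A-MYB, encoded by Mybl1, activates the long precursors of pachytene piRNAs and several genes of the pathway.

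Promoter sequences are shown for Piwil1 and Mov10l1, the members with a matched promoter that lost the largest and the smallest part of their level in knockout sections. The RefSeq table for GRCm38.p6 matched 8 of the 10 members, with 12 promoters. The 250 bases before each start were searched on both strands for the MYB core CAGTTG and for a second MYB element, TAACGG, which was added after the sequences had been read. The sequences run 5′ to 3′ on the plus strand, at chr5:128735996-128736178 and chr15:88982744-88982908 of GRCm38, and capitals mark the MYB letters. Each is printed up to the first GENCODE exon base of its gene within the 250 bases, and for Piwil1 to the end of the CAGTTG that runs into that exon. The Piwil1 promoter lies inside the GENCODE gene, which starts upstream at 128702524.
Piwil1: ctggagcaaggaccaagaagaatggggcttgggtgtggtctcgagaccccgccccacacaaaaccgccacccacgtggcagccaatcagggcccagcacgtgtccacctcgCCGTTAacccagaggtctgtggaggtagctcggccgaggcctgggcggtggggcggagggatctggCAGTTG
Mov10l1: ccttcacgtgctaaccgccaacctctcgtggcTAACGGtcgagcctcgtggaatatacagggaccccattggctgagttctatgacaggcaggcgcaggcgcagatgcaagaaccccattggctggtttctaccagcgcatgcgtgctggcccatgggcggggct
CAGTTG, or its reverse complement CAACTG, was found in 3 of the 12 member promoters, those of Piwil1 and of Tdrd7, and in 11.1% of all 32851 promoters of the table. TAACGG, or CCGTTA, was found in 2 of the 12, those of Piwil1 and Mov10l1, and in 2.18% of all. Since TAACGG was added after these sequences had been read, its number beside that share is no support for an excess. The cyclic AMP response core TGACGT was in 0 of the 12 and in 6.47% of all, and the RFX core GTTGCC, which can overlap CAGTTG in its letters GTTG, was in 0 of the 12 and in 10.4% of all. These are matches of letters and were not tested for binding.

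Entire-section libraries had totals of 247539 to 566527 counts, and those targeted to Leydig cells had 5947 to 54882. The smallest library, wild-type Leydig-targeted replicate 3, stood apart with a TMM scaling factor of 2.28, against 0.567 to 1.39 in the others. H3f4, the symbol under which the table lists H3t, had 1 count over all 12 libraries, so the deletion could not be checked from these counts. Levels below are CPM, counts scaled to library size, after TMM scaling, which adjusts that size by a trimmed mean of gene ratios. CPM carry no correction for transcript length, so they are compared between groups and not between genes.

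All 10 members were lower in H3t KO entire sections than in wild-type ones in every library, with no overlap, where 25.0% of the 26389 genes with a count showed the same separation. Of the members, 8 passed the filter on low counts, and all 8 fell (edgeR, adjusted p at most 4.90e-09), while 39.1% of the 5182 genes tested were called lower. These 8 reached the filter in wild-type libraries, where they were high. Their median log2 fold change was -3.77, beside -0.35 over all genes tested. Neither their number nor their median is therefore support for the fall. Together the 10 genes took 0.261% ± 0.0228 of the counts of wild-type sections and 0.0225% ± 0.00380 of knockout ones (SD, n = 3 libraries each). In whole tissue, fewer germ cells and less RNA per germ cell cannot be told apart.

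**Figure D1:**
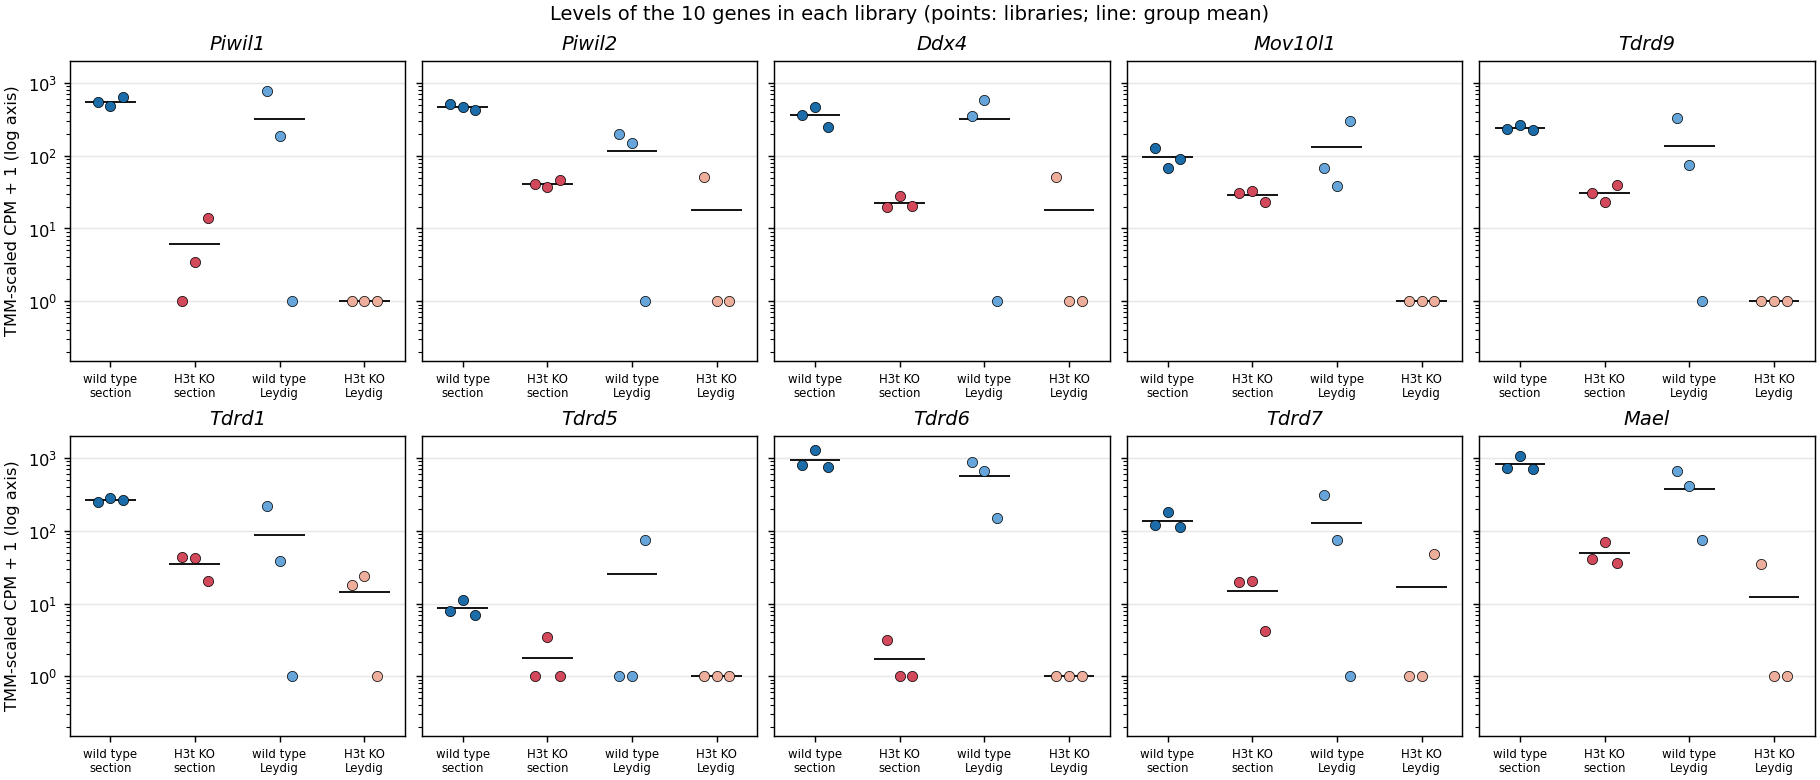
Level of each of the 10 genes in each of the 12 libraries, in TMM-scaled CPM plus 1 on a log axis, by group (points are libraries, lines are group means, and points at 1 had no counts). In entire sections the knockout points lie below the wild-type points for all 10 genes, and most knockout Leydig-targeted points are at 1.

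The genes of both Piwi proteins in the set fell, and less was left of Piwil1 than of Piwil2. Piwil1 (MIWI, ENSMUSG00000029423, chromosome 5, 128702524 to 128755474, plus strand) encodes the Piwi protein of pachytene spermatocytes and round spermatids, which carries pachytene piRNAs. Its level was 539.5, 483 and 641 CPM in the wild-type section libraries and 0, 2.42 and 12.8 CPM in the knockout ones. The knockout libraries therefore held 5 counts in all, 4 of them in replicate 3, against 488 in wild type. Piwil1 fell by 6.81 ± 0.66 on the log2 scale (SE, adjusted p = 1.10e-23), and its knockout level was 0.772% of the wild-type level (counting interval 0.249% to 1.81%). Without knockout replicate 3 the log2 fold change was -8.25, and without knockout replicate 1, which had no Piwil1 count, it was -6.15.

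Piwil2 (MILI, ENSMUSG00000033644, chromosome 14, 70372477 to 70429383, minus strand) encodes the Piwi protein present from fetal germ cells and spermatogonia onward. It stood at 514, 463 and 429 CPM in wild-type sections and at 40.2, 36.3 and 44.6 CPM in knockout sections. The 3 knockout values lay close together and far below the lowest wild-type value. Piwil2 fell by 3.53 ± 0.49 on the log2 scale (adjusted p = 5.45e-12), which left 8.31% of the wild-type level (6.03% to 11.2%). The counting intervals of what was left of Piwil1 and of Piwil2 did not overlap, which is a comparison by counting error alone.

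Of the helicase genes in the set, Ddx4 had the least left, but its counting interval overlapped that of Tdrd9. Ddx4 (mouse vasa homolog, ENSMUSG00000021758, chromosome 13, 112598333 to 112652475, minus strand) encodes the DEAD-box RNA helicase by which germ cells and chromatoid bodies are commonly recognised. Its values were 361, 469 and 247 CPM in wild-type sections and 19.0, 26.6 and 19.1 CPM in knockout sections, so the groups were far apart. Ddx4 fell by 4.02 ± 0.52 on the log2 scale (adjusted p = 9.52e-14). The knockout level was 5.78% of wild type (3.72% to 8.61%).

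Tdrd9 (ENSMUSG00000054003, chromosome 12, 111971559 to 112068854, plus strand) encodes a helicase with a Tudor domain that works with the fetal Piwi protein MIWI2 in transposon silencing. It was at 235, 267 and 224 CPM in wild-type sections and at 29.6, 21.8 and 38.3 CPM in knockout sections. Tdrd9 fell by 3.01 ± 0.47 (adjusted p = 1.02e-09), to 12% of wild type (8.14% to 17.2%).

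Mov10l1 (ENSMUSG00000015365, chromosome 15, 88982909 to 89055152, plus strand), the helicase that feeds piRNA precursors into processing, kept the largest part of its wild-type level. It was at 128, 67.5 and 88.2 CPM in wild-type sections and at 29.6, 31.5 and 22.3 CPM in knockout sections. The highest knockout library was below the lowest wild-type one. Mov10l1 did not pass the filter of the fit of all 4 groups. When the 2 section groups were fitted alone it fell by 1.46 ± 0.39 (adjusted p = 0.00197), and with no filter by 1.44 ± 0.50 (adjusted p = 0.0177), in fits that called 36.0% and 17.6% of genes lower. Its knockout level was 28.1% of wild type (18.4% to 42.1%), an interval above and apart from those of Piwil1, Piwil2, Ddx4, Tdrd6, Tdrd9, Tdrd7 and Mael, and overlapping those of Tdrd1 and Tdrd5.

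The Tudor domain genes ranged from Tdrd6, nearly undetected in knockout sections, to Tdrd1, of which 13.7% was left. Tdrd6 (ENSMUSG00000040140, chromosome 17, 43615335 to 43630299, minus strand) encodes a multi-Tudor protein of the chromatoid body that is needed for its architecture in round spermatids. Its wild-type sections held 798, 1297 and 747 CPM, and the knockout sections held 2.11, 0 and 0 CPM, which is 1 count against 860. Tdrd6 fell by 9.33 ± 0.79 on the log2 scale (edgeR, adjusted p = 1.97e-29), or 1142-fold (counting interval 204 to 45162). Leaving out knockout replicate 1, which held that count, left none in the group and gave -10.3, which is no bound.

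Tdrd7 (ENSMUSG00000035517, chromosome 4, 45965334 to 46034761, plus strand), a chromatoid body protein that remodels the granule in spermatids, was at 119, 179 and 112 CPM in wild-type sections. In knockout sections it was at 19.0, 19.4 and 3.19 CPM, with replicate 3 the lowest on 1 count. It fell by 3.17 ± 0.52 (adjusted p = 4.90e-09), to 10.9% of wild type (6.27% to 18.0%).

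Tdrd1 (ENSMUSG00000025081, chromosome 19, 56826209 to 56870012, plus strand), a scaffold that binds MILI in the granules between mitochondria, was at 249, 280.3 and 265 CPM in wild-type sections and at 42.3, 41.1 and 19.1 CPM in knockout sections. The wild-type values were the tightest of the 10 genes relative to their mean (mean 265 ± 15.6, SD, n = 3). Tdrd1 fell by 2.89 ± 0.46 (adjusted p = 2.41e-09), to 13.7% of wild type (9.63% to 19.0%). Its interval overlapped those of Tdrd7, Tdrd9 and Piwil2, so these 4 genes are not set apart by counting error.

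Tdrd5 (ENSMUSG00000060985, chromosome 1, 156255296 to 156303664, minus strand), a Tudor protein needed for pachytene piRNA processing, was close to the detection limit in every group. It had 7 counts in wild-type sections and 1 in knockout sections and did not pass the filter. With no filter its log2 fold change was -2.28 ± 1.19 (adjusted p = 0.159). Its exons overlap those of 4930518J20Rik on the other strand, and no source used here gives the strand setting, so reads of the 2 genes cannot be separated.

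Mael (ENSMUSG00000040629, chromosome 1, 166201201 to 166238747, minus strand) encodes maelstrom, a granule protein that binds piRNA precursor transcripts. It was at 725, 1067 and 712 CPM in wild-type sections and at 40.2, 70.2 and 35.1 CPM in knockout sections. Mael fell by 4.08 ± 0.51 (edgeR, adjusted p = 1.23e-14), to 5.89% of wild type (4.44% to 7.69%). This interval lay within that of Ddx4 (3.72% to 8.61%).

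**Figure D2:**
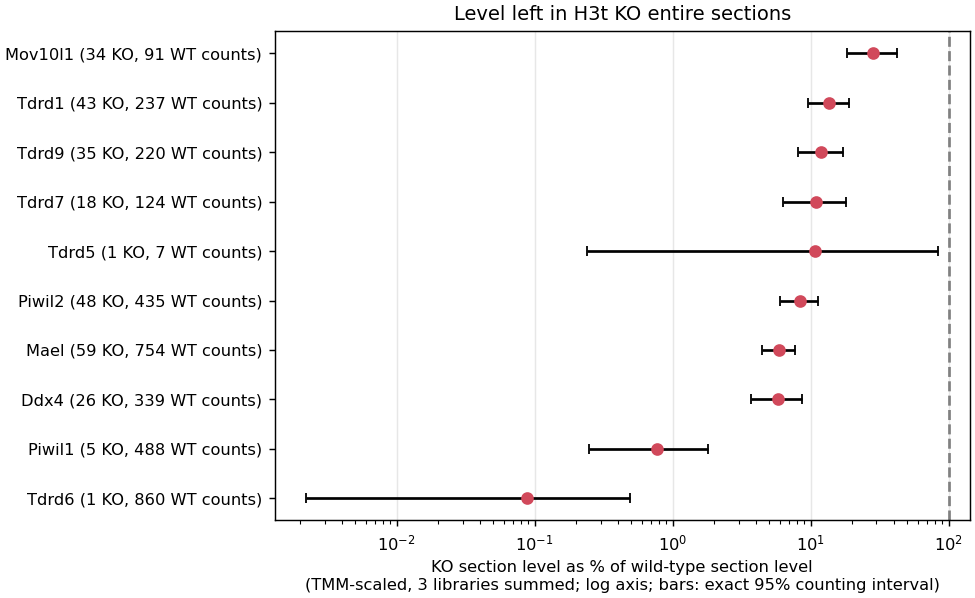
Level of each gene in knockout entire sections as a percent of its wild-type section level (TMM-scaled counts of 3 libraries summed, log axis, bars are exact 95% counting intervals, dashed line at 100%). Tdrd6 and Piwil1 lie below 1%, 7 genes lie between 5.78% and 13.7%, and Mov10l1 lies at 28.1%.

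The make-up of the 10-gene counts changed with genotype. Piwil1 and Tdrd6 together, a pair chosen after its values were seen, were 36.4%, 38.8% and 40.0% of the counts of the 10 genes in the wild-type section libraries. In the knockout section libraries the pair made up 0.952%, 0.962% and 6.56%. Mov10l1 went from 2.56% (exact interval 2.07% to 3.13%) to 12.6% (8.88% to 17.2%), Tdrd1 from 6.67% (5.87% to 7.54%) to 15.9% (11.8% to 20.8%) and Tdrd9 from 6.19% (5.42% to 7.03%) to 13% (9.20% to 17.6%). Piwil2 went from 12.2% (11.2% to 13.4%) to 17.8% (13.4% to 22.9%), with no overlap of the libraries, and Tdrd7 from 3.49% (2.91% to 4.14%) to 6.67% (4.0% to 10.3%), with overlap. The shares of Ddx4, 9.54% and 9.63%, and of Mael, 21.2% and 21.9%, lay within each other's intervals. All shares add to a fixed total, so the loss of the pair by itself raises every other share. A larger or steady share is therefore not by itself a smaller fall. Piwil2, Ddx4 and Mael kept 8.31%, 5.78% and 5.89% of their wild-type section level. With the pair left out, the other 8 genes still took 0.143% to 0.181% of each wild-type library and 0.0177% to 0.0263% of each knockout library.

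**Figure D3:**
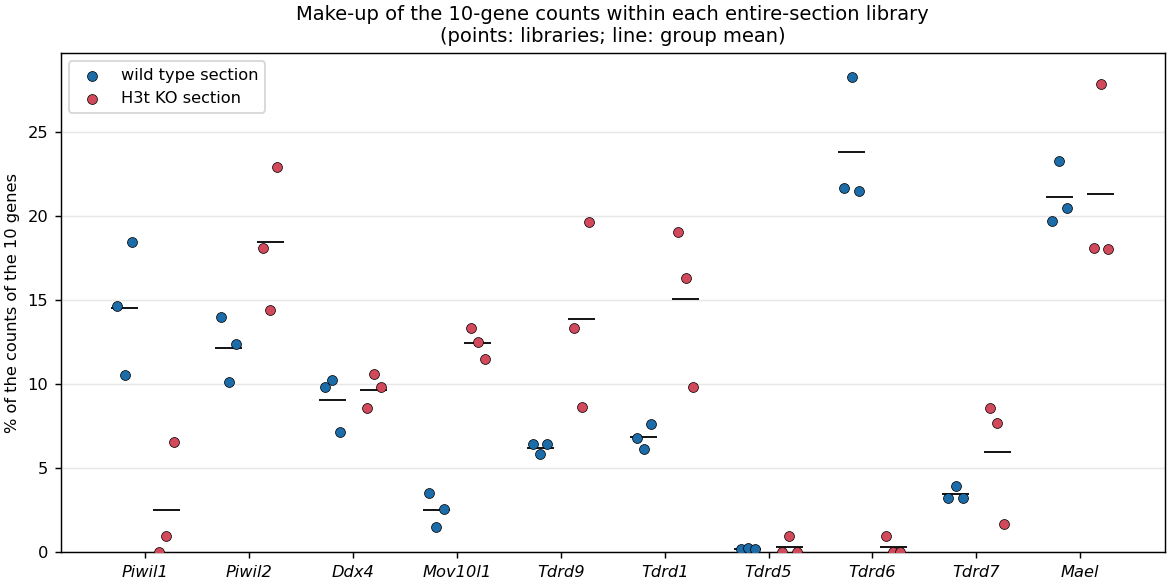
Share of each gene in the counts of the 10 genes, in percent, for each entire-section library (points are libraries, lines are group means, blue wild type, red H3t KO). Tdrd6 and Piwil1 drop towards 0 in knockouts, Mov10l1, Tdrd1, Tdrd9 and Piwil2 take larger shares, and Ddx4, Mael and Tdrd7 overlap. Shares add to a fixed total, so the drop of Tdrd6 and Piwil1 by itself raises the others.

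The members moved beside a change in germ cell markers. The 14 spermatocyte markers took 0.622% to 0.870% of the counts of wild-type sections and 0.0222% to 0.0277% of knockout sections, with Ccna1 at 0 in the knockouts. The 12 round spermatid markers took 0.511% to 0.927% and 0.00102% to 0.0109%, with Spaca7, Catsper4, Catsper3 and Tssk1 at 0 in the knockouts, and the 12 elongating spermatid markers took 2.56% to 4.89% and 0.00535% to 0.0774%, with Spem1 and Gapdhs at 0. The 15 spermatogonia markers took 0.0643% to 0.0754% in wild type and 0.0663% to 0.0761% in knockouts, where Gfra1 and Nanos3 were at 0. All these shares are of library totals without TMM scaling. The TMM factors were 0.567 to 0.772 in wild-type sections and 0.975 to 1.05 in knockout ones, so a like share is not a like TMM-scaled level. On the TMM scale, single spermatogonia markers did not move alike: of 6 tested, 3 were called lower and 1 higher (edgeR). Their median log2 fold change was -1.17, beside -0.35 over all genes tested, of which 39.1% were called lower. Set against the summed spermatogonia markers, the 10 members had 3555 counts beside 928 in wild-type sections and 270 beside 853 in knockout sections. Markers of somatic cells moved the other way: the 12 Sertoli markers found took 0.366% to 0.656% and 1.67% to 1.74%, the 11 Leydig markers 0.323% to 0.651% and 3.61% to 4.31%, and the 12 macrophage markers 0.0243% to 0.0545% and 0.150% to 0.375%, with none at 0. The part of these shifts in the members' fall was not tested.

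The other pathway genes came from lists written for this tissue, apart from the 10 members. Over these lists 20 genes were tested in entire sections, of which 10 fell and 2 rose, where 39.1% of all genes tested were called lower and 22.6% higher. The 10 also fell under each of 4 other scalings, but the number that rose moved with the scaling. With library size alone 10 fell and 7 rose, and with Sertoli marker scaling 12 fell and 0 rose. Of 16 other piRNA biogenesis genes, 4 passed the filter and 3 of those fell (median of the 4, -3.10). These were Gtsf1, a zinc finger partner of Piwi proteins (log2 fold change -6.06 ± 0.60, adjusted p = 1.89e-22), Pld6, the mitochondrial enzyme that makes the 5′ ends of piRNAs (-3.83 ± 0.60, adjusted p = 6.79e-10), and Tex15 (-2.38 ± 0.46, adjusted p = 8.80e-07). Gtsf1 and Pld6 reached the filter in wild-type libraries, with means of 8.43 and 6.55 CPM in knockout sections. The number that fell and the median are therefore not support for a fall of the list. Biogenesis genes below the filter with counts in knockout sections kept from 7.53% to 60.2% of their wild-type section level, on few counts. Fkbp6, a co-chaperone in piRNA loading, had a log2 fold change of 0.38 ± 0.45 (adjusted p = 0.467), with overlapping libraries. It was -0.81 with Sertoli marker scaling (adjusted p = 0.126) and was called higher with library size alone (0.98, adjusted p = 0.0307).

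Of 16 other granule genes in the table, 9 were tested, 6 fell and 1 rose (median of the 9, -3.25), where 39.1% of all genes tested were called lower. Gtsf2 had no counts in knockout sections and 170 in wild type, 75.3-fold lower with the knockouts set at a floor of 3 counts. Hspa2, a meiotic heat shock protein, fell by 4.76 ± 0.54 (adjusted p = 9.50e-18). Ddx25, a chromatoid body helicase, fell by 4.88 ± 0.56 (adjusted p = 2.80e-17), and Gtsf1l fell by 6.16 ± 0.79 (adjusted p = 5.85e-14). Gtsf2, Ddx25 and Gtsf1l reached the filter in wild-type libraries, with means of 0, 14.2 and 1.06 CPM in knockout sections. The number that fell and the median are therefore not support for a fall of the list. Granule genes below the filter with counts in knockout sections were at 6.28% to 176% of their wild-type section level, on few counts. The gene that rose, named after its value was seen, was Snd1, a Tudor protein found in most cell types, with a log2 fold change of 1.24 ± 0.44 (adjusted p = 0.00901) that was 0.091 when libraries were scaled to Sertoli markers (adjusted p = 0.882; from 3.11e-05 to 0.0237 under the 3 other scalings). Tsnax and Tsn, which are also used outside germ cells, had log2 fold changes of 0.42 ± 0.44 and 0.25 ± 0.44 and were not called. With Sertoli marker scaling they were -0.76 and -0.92, not called, and with library size alone 1.0 (called higher, adjusted p = 0.0226) and 0.81 (adjusted p = 0.0560).

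None of the 3 regulators of pachytene piRNA precursor transcription passed the filter. Mybl1, the A-MYB gene, had 43 counts in wild-type sections and 14 in knockout sections, or 24.5% of the wild-type level (12.4% to 45.7%). Tcfl5 had 62 and 8 counts, or 9.72% (4.02% to 20.4%), and Btbd18 had 1 in each. Among 12 relatives of the members that are used in all cell types, 7 were tested (median 0.50). Ago2, the slicer of small interfering and micro RNAs, fell by 1.51 ± 0.44 (adjusted p = 0.00158), Ddx3y, an RNA helicase of the Y chromosome, rose by 1.56 ± 0.46 (adjusted p = 0.00161), but was at 0.39 with Sertoli marker scaling (adjusted p = 0.482; from 1.04e-06 to 0.000553 under the others), and 5 were not called. Among these, Ago1 was at 0.82 ± 0.49 and Dicer1 at 0.61 ± 0.50, and both were below 0 with Sertoli marker scaling, at -0.32 and -0.52, not called. With library size alone both were called higher, at 1.37 (adjusted p = 0.00576) and 1.15 (adjusted p = 0.0249), and Ago1 was also called higher with TMMwsp scaling (1.12, adjusted p = 0.0333).

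**Figure D4:**
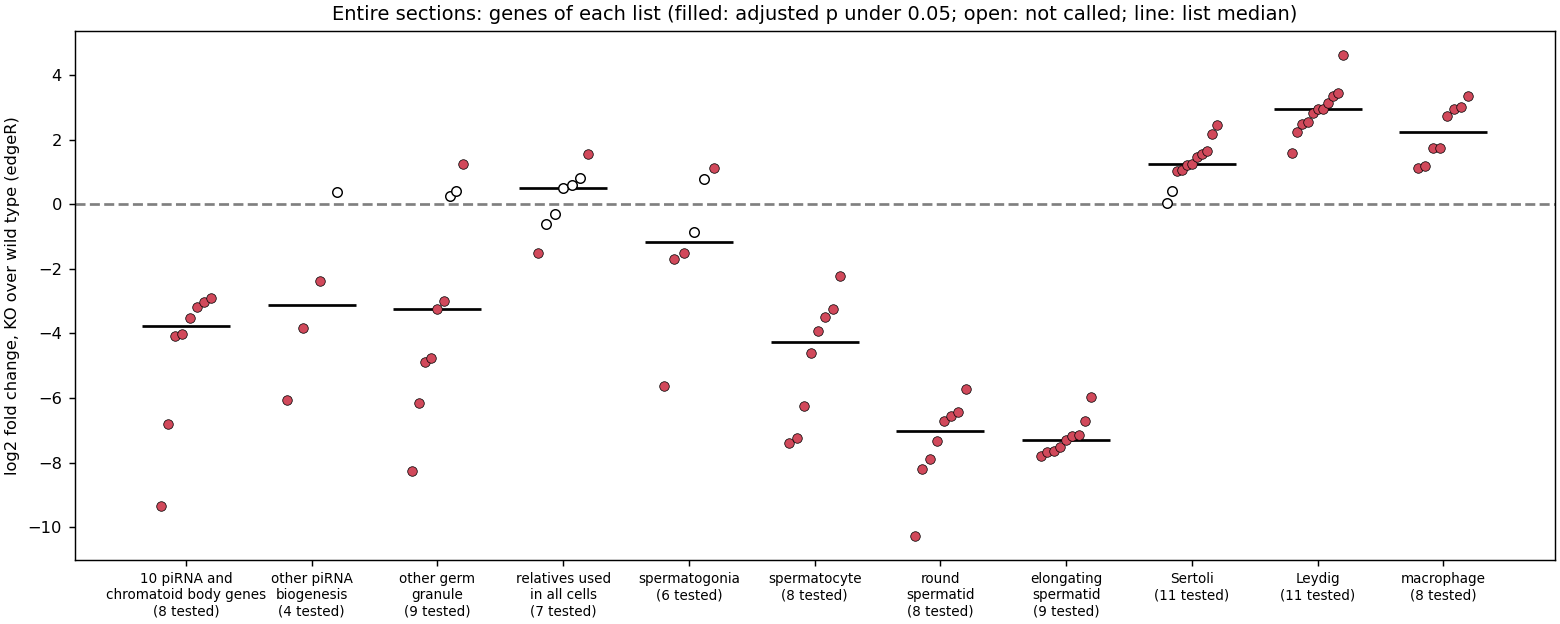
Log2 fold change of knockout over wild-type entire sections for each tested gene of the 10 members, of 3 lists of related genes and of 7 lists of cell type markers (filled points have an adjusted p under 0.05, open points were not called, lines are list medians, here over tested genes only). The members' median is -3.77, and single members run from -9.33 (Tdrd6) to -2.89 (Tdrd1). The medians of spermatogonia, spermatocyte, round spermatid and elongating spermatid markers are -1.17, -4.27, -7.02 and -7.29.

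Over all 12 libraries, the genes whose log2 CPM followed the mean of the 8 tested members most closely were Vwa3b (Pearson's r = 0.991), Ccdc40, a gene of motile cilia assembly (0.990), Rpl39l, a ribosomal protein gene of germ cells (0.988), D11Wsu47e (0.988) and Fam178b (0.987). The 12 points share the 4 groups and their depths, so this is a description with no test. In entire sections these 5 genes had log2 fold changes of -4.89, -5.30, -4.77, -4.94 and -5.72.

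In Leydig-targeted libraries the members' counts were small. Over the 10 genes there were 172, 60 and 8 counts in the wild-type libraries, and the knockout libraries held 9, 1 and 1. The share of library counts was 0.313%, 0.223% and 0.135% in wild type and 0.0170%, 0.00252% and 0.00658% in knockouts, with no overlap of the genotypes. All 8 members that passed the filter fell (edgeR), while 20.9% of the genes tested were called lower. These 8 passed the filter of the fit of all 12 libraries through wild-type ones, so here too their number is not support for the fall. Single members overlapped more often: for 3 of the 10, Tdrd6, Mael and Mov10l1, every knockout library was below every wild-type one, which held for 2.56% of genes with a count.

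Piwil1 had 35, 5 and 0 counts in the wild-type Leydig-targeted libraries and none in the knockout ones (edgeR, adjusted p = 2.10e-06). With the knockouts set at a floor of 3 counts, Piwil1 was 19.2-fold lower. Tdrd6 had 40, 18 and 2 counts against none, 28.7-fold lower at that floor (adjusted p = 3.01e-08). Tdrd9 had 15, 2 and 0 against none, 8.14-fold lower at that floor (adjusted p = 0.000379). The counts of these 3 genes came mostly from wild-type replicate 1, and replicate 3 had at most 2 of any of them.

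Mael had 30, 11 and 1 counts in the wild-type libraries against 2, 0 and 0, 30.2-fold lower (counting interval 7.85 to 257, adjusted p = 2.95e-05). Ddx4 had 16, 16 and 0 against 3, 0 and 0, 15.3-fold lower (4.79 to 78.2, adjusted p = 0.000279). Tdrd7 had 14, 2 and 0 against 0, 0 and 1, 23.0-fold lower (3.57 to 964, adjusted p = 0.00298). The knockout counts of these 3 genes are so few that the counting intervals are wide. Those of Mael and Ddx4 came from replicate 1 and that of Tdrd7 from replicate 3, and without that library the knockout group held none (fitted log2 fold changes of -9.49, -9.19 and -8.38, which are no bounds). Without wild-type replicate 1, Tdrd7 had a log2 fold change of -2.80 and was not called (adjusted p = 0.333), against -4.28 with all libraries, and with no filter it was -3.65 (adjusted p = 0.0766). Over its 18 alternatives the adjusted p of Tdrd7 ran from 0.000218 to 0.333.

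Tdrd1 had 10, 1 and 0 counts against 1, 1 and 0, 7.90-fold lower (1.72 to 73.4, adjusted p = 0.0443), and Piwil2 had 9, 4 and 0 against 3, 0 and 0, 6.23-fold lower (1.71 to 34.1, adjusted p = 0.0488). Both calls lie at the threshold and were lost under 11 of 18 alternatives each (adjusted p from 0.00564 to 0.833 for Tdrd1 and from 0.00358 to 0.468 for Piwil2). The log2 fold change of Tdrd1 was -2.84 with all libraries and -0.90 without wild-type replicate 1. That of Piwil2 was -2.57 with all libraries and -1.84 without knockout replicate 2. Without knockout replicate 1, which held all 3 of its knockout counts, it was -7.89, which is no bound. With wild-type replicate 1 left out, 4 of the members were called, Piwil1, Tdrd6, Ddx4 and Mael, while Tdrd9 was not (adjusted p = 0.134; 5.31e-05 to 0.134 over its alternatives). With the shallow wild-type replicate 3 left out, 8 were called. Fitted with the 2 Leydig-targeted groups alone, 1 member, Tdrd6, reached the filter and was called, beside 19.9% of 418 genes called lower. Mov10l1, below the filter, had 3, 1 and 4 counts against none, 3.83-fold lower with the knockouts set at a floor of 3 counts. Tdrd5 had 1 count in wild type and none in knockouts.

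**Figure D5:**
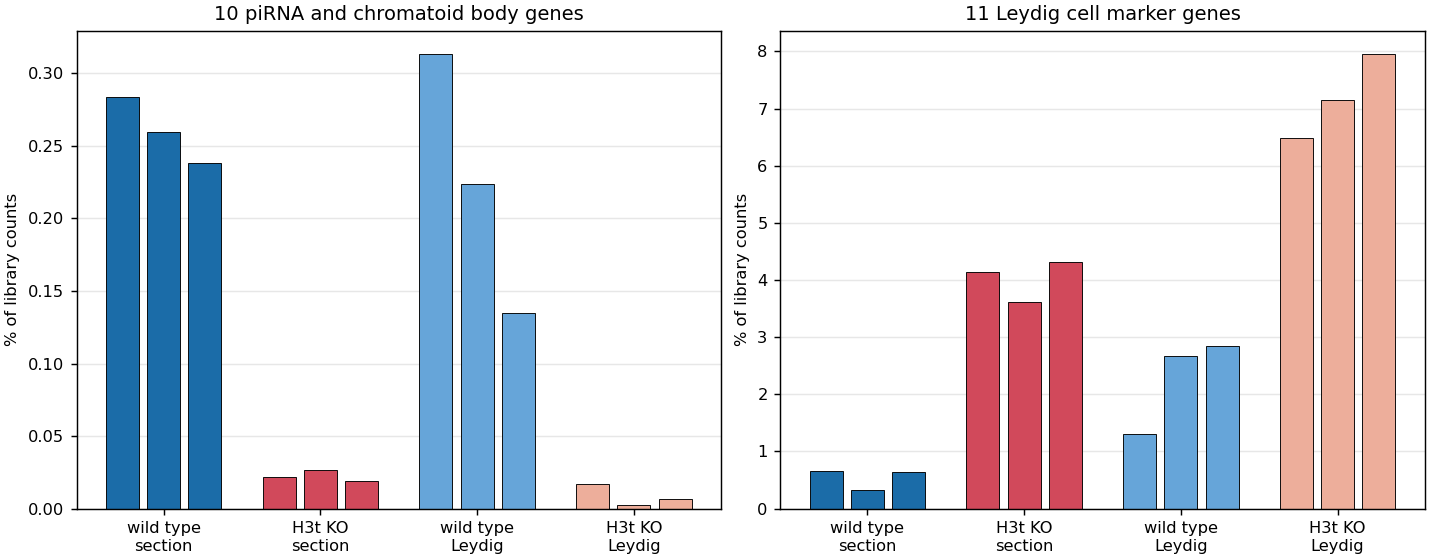
Percent of each library's counts taken by the 10 members (left) and by the 11 Leydig cell markers (right), 1 bar per library, both axes from 0. Members take at least 0.135% in wild-type libraries of both regions and at most 0.0265% in knockout libraries, while Leydig markers are higher in Leydig-targeted than in entire-section libraries of the same genotype.

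Leydig-targeted libraries of wild type held transcripts of both Leydig and germ cells. The 11 Leydig markers took 1.31% to 2.84% of wild-type Leydig-targeted counts and 6.49% to 7.96% of knockout ones. Spermatocyte markers took 0.681% to 0.689% and 0.00658% to 0.0151%, with Dmc1 and Hormad2 at 0 in wild type and 7 of 14 at 0 in knockouts. Round spermatid markers took 0.370% to 0.413% and 0% to 0.0101%, with 9 of 12 at 0 in knockouts. The part of germ cell RNA in the members' counts at Leydig cells was not tested.

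Within wild type, members were also counted at Leydig cells. They took 0.224% ± 0.0894 of Leydig-targeted libraries, beside 0.261% in entire sections. Of 8 members tested, only Piwil2 was called, and it was lower at Leydig cells, with a log2 fold change of -1.71 ± 0.61 (edgeR, adjusted p = 0.0356), while 12.4% of genes tested were called lower. Piwil2 stood at 198, 147 and 0 CPM in the Leydig-targeted libraries, all below the lowest section library, and the call held under 6 of 19 alternatives (adjusted p from 0.00382 to 0.339). Without the shallow replicate 3 it was -1.13 (adjusted p = 0.233). Mael and Tdrd1 were also below every section library, at 58.4% (counting interval 41.7% to 79.7%) and 48.6% (23.9% to 88.6%) of the section level, but their adjusted p was 0.200 and 0.192, and 21.7% of genes with a count were separated in the same way. Tdrd6 was at 73.1% (55.3% to 95.0%) of its section level, Piwil1 at 85.9% (60.6% to 119%), Ddx4 at 98.9% (66.6% to 142%), Tdrd9 at 81.0% (46.3% to 133%), Tdrd7 at 135% (74.9% to 228%) and Mov10l1 at 92.1% (38.6% to 189%), all with overlapping libraries. These 5 tested genes (Mov10l1 was not tested) have directions that turn with the scaling or filter.

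Within knockouts, the Leydig-targeted libraries held 11 counts of the 10 genes, and 5 genes (Piwil1, Tdrd5, Tdrd6, Tdrd9 and Mov10l1) had none. None of the 8 tested members was called between Leydig-targeted and entire-section knockout libraries by edgeR or by DESeq2, with 1 member, Tdrd9, at an unadjusted p under 0.05 in edgeR and 0 in DESeq2. In that comparison 5.44% of the genes tested were called. The pooled level of Piwil2 at Leydig cells was 60.5% of that in sections, with a counting interval of 12.1% to 188%, so a several-fold difference was not detectable at this depth. For Mael, Tdrd9 and Mov10l1 every Leydig-targeted library was below every section library. Mael had 2 against 59 counts (32.8%, 3.89% to 124%), Tdrd9 0 against 35 and Mov10l1 0 against 34. Libraries without counts separate easily, and neither Mael nor Tdrd9 was called.

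The genotype difference itself was compared between regions with the interaction term. None of the 8 members was called by edgeR or DESeq2, and 0 had an unadjusted p under 0.05 by either, while 0.328% of genes tested were called. The smallest adjusted p among the members was 0.524, for Tdrd9. This does not show that the fall was of the same size in both regions, since the knockout Leydig-targeted libraries held too few counts to measure it.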

How the data were processed

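Transcripts were counted in 12 photo-isolation chemistry libraries of mouse testis sections, 3 per group. The deposited values are raw whole-number counts per gene. They are not normalized by the authors. The tools HISAT2, featureCounts, UMI-tools and Trim Galore and the build GRCm38 are named, per the submitters' processing notes, and no source used here gives versions, step order or strand settings.

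Counts were tested with edgeR 4.0.16 (robust quasi-likelihood, R 4.3.3), fitting the 12 libraries together with TMM scaling. The expression filter used a minimum count of 10, about 66.1 CPM in at least 3 libraries, which left 5182 genes. A call needs an adjusted p under 0.05 (Benjamini-Hochberg, over all genes tested). SE is that of the log2 fold change. The script was tested on simulated data. Levels left are ratios of counts summed over 3 libraries, with exact 95% intervals that cover counting error only. Folds against 0 counts use a floor of 3 counts over the group. They take the wild-type counts as exact, so they are not strict lower bounds. Positions are from GENCODE M21 and promoters from RefSeq, both GRCm38. All members and up to 4 called and 2 uncalled genes per pathway list, by adjusted p, are named.

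The members, lists and tests were chosen with earlier results of these data known. Each group was deposited as 1 sample holding 3 libraries, so group and pool cannot be told apart. In entire sections, deviations of same-numbered libraries of both genotypes correlated at 0.243, 0.132 and 0.194, and no source used here gives the cause. For Leydig-targeted libraries these correlations were -0.00357, 0.00818 and -0.00629. Libraries of unlike number were not compared, so whether the replicate numbers pair the libraries cannot be told. Alternatives were library size, TMMwsp and Sertoli marker scaling, no filter, a replicate block, fits of 2 groups alone, DESeq2 1.42.0 and leaving out each library; single genes between regions and pathway genes under other scalings were added after seeing the data.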

Additional observations from a re-analysis of the deposited data

How the results depend on the processing

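In entire sections all 8 tested members fell under all 19 alternatives, with 9 called with no filter and 9 with the 2 groups alone, where Mov10l1 is added. Scaling to Sertoli markers shifts the median of all genes from -0.35 to -1.53 and library size to 0.22; members' log2 fold changes moved with it, Tdrd1 between -4.07 and -2.31. Pathway genes called in sections went from 12 of 20 tested (10 lower, 2 higher) to 17 of 20 with library size alone (10 and 7), 22 of 47 with no filter (19 and 3) and 21 of 27 with the 2 groups alone (15 and 6); leaving out 1 library gave 12 to 14. With the replicate block, 8 members were called in sections, 6 at Leydig cells (Piwil2 and Tdrd1 lost, adjusted p = 0.0660 and 0.0638) and 12 pathway genes, and it changed no other member's call. At Leydig cells the knockout against wild-type count was 5 with no filter and 1 with the 2 groups alone, where 1 member was tested; leaving out 1 library gave 4 to 8. Between regions in wild type, 1 member was called, 3 with no filter, and 0 with library size, TMMwsp, Sertoli scaling or the 2 groups alone; leaving out 1 library gave 0 to 1.

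Uncalled directions between regions in wild type turned as follows (log2). Library size gave Piwil1 0.070, Tdrd9 0.14, Ddx4 0.61 and Tdrd6 0.061. Sertoli scaling gave Piwil1 0.21, Tdrd9 0.24, Ddx4 0.69 and Tdrd6 0.15. The 2 groups alone gave Piwil1 0.035, Tdrd9 0.12 and Ddx4 0.59. Ddx4 was 0.25 with TMMwsp and 0.091 with DESeq2, and Tdrd7 was -0.40 with no filter. Leaving out 1 library gave Piwil1 -1.82 to 0.14, Tdrd9 -1.91 to 0.15, Tdrd7 -1.08 to 0.90, Ddx4 -0.57 to 0.64 and Tdrd6 -0.76 to 0.023. The cause was not tested. Depth limits the Leydig-targeted values: a count of 0 over 3 knockout libraries allows up to 24.2 CPM.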
